A study of Homo sapiens with 24 samples.

Results

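Old mRNA that was still labelled 8 and 12 h into the chase of a SLAM-seq decay experiment was compared between HEK293T cells with CRISPR guides against CNOT3 (sgCNOT3) and cells with non-targeting guides (sgNT). The late chase holds 8 of the 24 libraries of the series, namely 2 sgCNOT3 and 2 sgNT libraries at 8 h and the same at 12 h. Genes entered when their conversion was above 0 in all 4 libraries at 0 h, which kept 11692 of 19798 genes (59.1%), and no late value was used to choose them. HEK293T is a human embryonic kidney line. Cells were transduced with lentiCRISPR_v2, selected in puromycin for 4 days, labelled with 75 µM 4-thiouridine (4-SU) for 24 h and chased with an excess of UTP, and 3′ end libraries were sequenced. Both genotypes had this vector, the selection and the labelling in common, and differed in the guides. Each library came from a pool of edited cells. Both genotypes have a pair of named guides, and the labels do not tell which of them a given library carried, nor whether the 2 libraries of a group were separate cultures. All p-values below thus rest on differences among libraries that may be technical repeats.

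CCR4-NOT is the main cytoplasmic deadenylase of human cells. It shortens the poly(A) tail of an mRNA, after which the cap is removed and the body of the mRNA is degraded. CNOT3 is a subunit without catalytic activity that helps to recruit the complex to its targets. In SLAM-seq, 4-SU enters RNA made during the labelling, iodoacetamide modifies it, and the modified uridine is read as C. During the chase new RNA is unlabelled, so the conversion of an mRNA falls as its labelled copies decay and are replaced. Late in the chase, short-lived mRNAs have lost most of their label and long-lived ones keep it.

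The guides are shown because they define the groups. They are written 5′ to 3′ from the study's oligonucleotide list, with the PAM that follows the target in the GRCh38 genome in capitals.
sgCNOT3-1: gagggaccaaatcaagacatGGG
sgCNOT3-2: tcttgcggatggcgtcaacgAGG
sgNT1: atcgtttccgcttaacggcg
sgNT2: tagagatatccgatcgtggt
The target of sgCNOT3-1 lies on the plus strand at chr19:54143665-54143684, in coding exon 5 of CNOT3, and that of sgCNOT3-2 on the minus strand at chr19:54145702-54145721, in coding exon 8 (GENCODE release 44). Each had 1 perfect match followed by NGG in the genome. The sgNT guides had 0 such matches.

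CNOT3 mRNA itself (ENSG00000088038.20, chromosome 19, 54137749 to 54155681) had a conversion of 20.8% and 14.4% (8 h) and 28.6% and 30.3% (12 h) in sgCNOT3, against 15.3% and 25.8% (8 h) and 12.1% and 2.33% (12 h) in sgNT. The groups overlapped at 8 h and not at 12 h. At 0 h the values were 62.1% and 80.95% in sgCNOT3 and 34.7% and 31.5% in sgNT, so the starting label already differed. The late difference did not pass the test (log2 difference 1.09 ± 0.68 SE, adjusted p = 0.27). Conversion read at the 3′ end says nothing of cutting by the guides or of how much mRNA was left, and it is no check of the knockout.

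The median conversion over the tested genes was 16.2% and 15.2% in sgCNOT3 at 8 h, against 9.66% and 11.2% in sgNT. At 12 h it was 8.21% and 9.47% in sgCNOT3, against 5.17% and 4.68% in sgNT. Both sgCNOT3 libraries were above both sgNT libraries at each late time, whereas at 0 h the medians overlapped, with 36.6% and 33.3% in sgCNOT3 and 36.1% and 32.3% in sgNT. The mean log2 library medians differed by 0.72, a ratio of 1.64. The exact permutation test, two-sided with genotypes exchanged within chase time, gave p = 0.056, which is the smallest value that the 36 exchanges can give. Genes listed at 0 numbered 532 and 194 in sgCNOT3 and 903 and 1087 in sgNT at 8 h. At 12 h there were 863 and 649 in sgCNOT3 and 1971 and 1985 in sgNT. The conversions were analysed without read counts. Their depth is therefore unknown, and a 0 can mean no converted read or no read. Of the markers listed for HEK293T, 9 of 10 had conversion above 0 in all 4 libraries at 0 h, as did 1 of 10 markers listed for T cells (LAT).

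**Figure D1:**
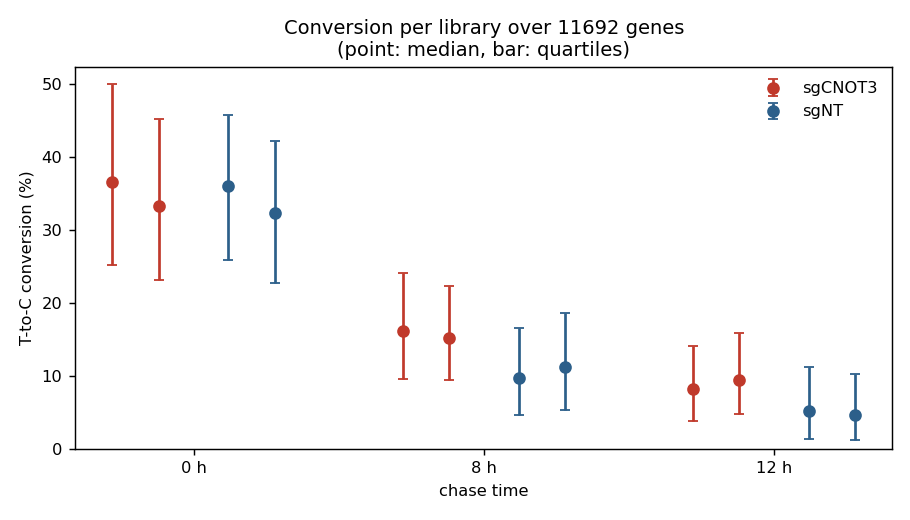
Conversion in percent (vertical axis) per library at 0, 8 and 12 h of chase, sgCNOT3 in red and sgNT in blue, with the median over 11692 genes as a point and the quartiles as a bar. At 8 h the sgCNOT3 medians are 16.2% and 15.2% and the sgNT medians 9.66% and 11.2%, while the medians at 0 h overlap.

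The main comparison asked which mRNAs kept more or less old label in sgCNOT3. It was made on 2 scales, as a ratio (log2 of percent plus 0.344 points) and as a difference in percentage points, with chase time as a covariate. As a ratio, 2270 of 11692 genes were higher in sgCNOT3 (19.4%) and 186 were lower (1.59%) by limma with Benjamini-Hochberg adjustment at 0.05. As points, 1965 were higher (16.8%) and 148 were lower (1.27%). Both sgCNOT3 libraries were above both sgNT libraries at 8 h and at 12 h for 3801 genes (32.5%), and below for 409 (3.5%). Ratio and points shared 1723 genes called higher (75.9% of those called by ratio and 87.7% of those called by points) and 142 called lower. The 547 genes higher as a ratio alone had a median of 64.7% of their 0 h conversion left at 4 h in sgNT, and the 1723 higher on both scales had 73.1%. In sgNT at 12 h the median conversion was 2.73% for the 547 and 4.88% for the 1723. The 242 genes higher as points alone had 67.8% left at 4 h and a median of 2.69% in sgNT at 12 h. Genes called higher on 1 scale alone, whichever it was, thus had less label in sgNT than those called on both.

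The difference was shared by most genes. The median gene was higher in sgCNOT3 by 0.63 on the log2 scale, a ratio of 1.54, or by 3.63 points, and 9574 genes (81.9%) had a ratio above 0. Relative to this shift, after each library was centred on its own median, 364 genes were higher (3.11%) and 1541 were lower (13.2%) as a ratio, and 238 were higher (2.04%) and 860 lower (7.36%) as points. Centring lowered every log2 difference by 0.69. The count of 2270 fell to 1228 and 948 without sgCNOT3 8 h replicate 1 or 2, to 1268 and 1007 without sgCNOT3 12 h replicate 1 or 2, and to 1409 without sgNT 8 h replicate 1. The count of 1965 lay between 227 (without sgNT 8 h replicate 1) and 1023 when any 1 library other than sgCNOT3 12 h replicate 1 was left out. Genes called lower numbered 77 to 123 as a ratio and 9 to 73 as points with any 1 library left out.

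**Figure D2:**
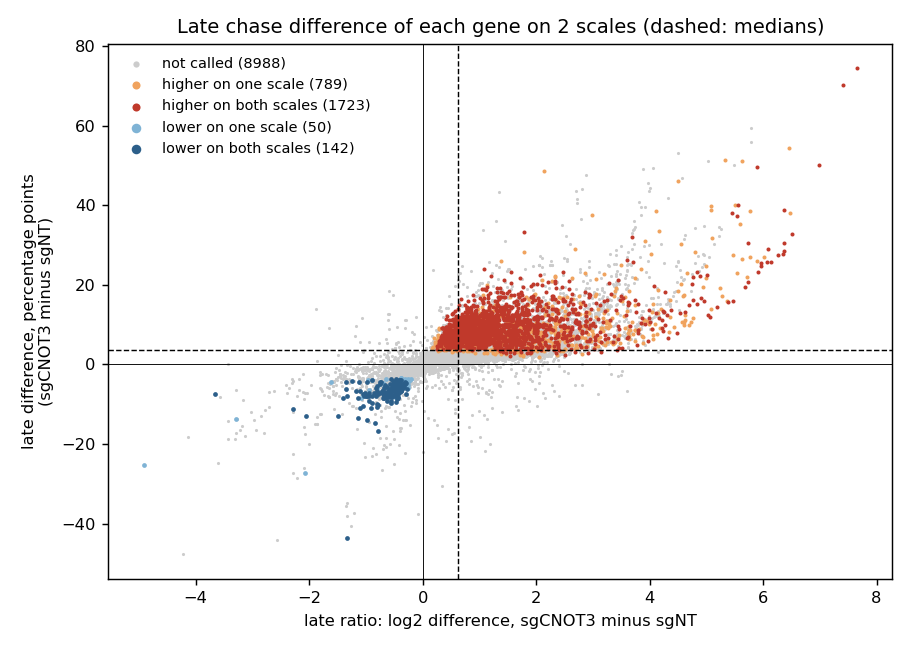
Each of 11692 genes by its late log2 difference (horizontal axis) and its late difference in percentage points (vertical axis), sgCNOT3 minus sgNT, with colours for calls on each scale. The dashed lines mark the medians of 0.63 and 3.63 points, and the 142 genes lower on both scales form a small group on the left below 0.

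Most genes called lower were lower already at the start of the chase. Both sgCNOT3 libraries were below both sgNT libraries at 0 h for 172 of the 186 genes called lower as a ratio (92.5%), against 2861 of all 11692 genes tested (24.5%). The median conversion of these 186 genes at 0 h was 19.7% in sgCNOT3 and 33.8% in sgNT. Their median log2 difference was -0.68 at 0 h and -0.55 late. At 0 h the sgCNOT3 libraries were above both sgNT libraries for 741 of the 2270 genes called higher (32.6%) and below both for 597 (26.3%), close to the 29.2% and 24.5% of all genes. The libraries at 0 h entered no late difference. The difference of the late contrast from the 0 h contrast was higher for 900 genes (7.7%) and lower for 9 (0.077%), and 747 of the 900 were also called higher in the late chase. After centring, the same test called 105 higher and 90 lower. The 909 calls fell to between 74 and 261 when any 1 library at 0 h was left out and to 518 and 487 without sgCNOT3 8 h replicate 1 or 2, and were 1431 without sgNT 12 h replicate 1. The 3 genes called lower late and also lower relative to 0 h were DDX6, PSAT1 and ABCB10, the last chosen after its values were seen. Of the 186, 7 passed that test in the other direction.

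Among mRNAs above 0 in all 8 late libraries and called higher on both scales, 10 were taken by the largest moderated t of the ratio. In 8 of them the label in sgCNOT3 fell between 8 and 12 h, and in RPS27A and UQCRQ it stayed level. GRPEL2, a nucleotide exchange factor of the mitochondrial chaperone system (ENSG00000164284.15, chromosome 5, 149345430 to 149354583), had 29.3% and 31.4% (8 h) and 19.5% and 24.4% (12 h) in sgCNOT3, against 7.39% and 6.71% (8 h) and 3.66% and 2.87% (12 h) in sgNT. All 4 sgCNOT3 values exceeded all 4 sgNT values (log2 difference 2.34 ± 0.18 SE, adjusted p = 0.0046), a difference of 21.02 ± 1.70 percentage points (SE, adjusted p = 0.0080). Its conversion at 0 h was 6.62% and 8.62% in sgCNOT3 and 42.9% and 38.2% in sgNT, so that in sgCNOT3 more label was read late than at the start. Across the tested genes the mean conversion at 8 h was above that at 0 h for 1116 genes in sgCNOT3 (9.54%) and 448 in sgNT (3.83%). Among the 2270 genes called higher it was so for 385 in sgCNOT3 (17%) and 49 in sgNT (2.16%). Of the 10 mRNAs, the sgCNOT3 mean also rose for ZNF622 (13.8% to 28.3%), TCEAL1 (19.4% to 29.1%) and NOA1 (29.4% to 35.9%), and slightly for RPS27A (24.4% to 24.8%).

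ZNF622, a zinc finger protein of ribosome maturation (chromosome 5, 16451519 to 16465800), had 28.6% and 28.02% (8 h) and 13.6% and 14.6% (12 h) in sgCNOT3, against 5.68% and 3.90% (8 h) and 1.25% and 1.15% (12 h) in sgNT (log2 difference 2.86 ± 0.24 SE, adjusted p = 0.0046). Its 0 h values were 11.7% and 15.9% in sgCNOT3 and 29.3% and 40.4% in sgNT, lower in sgCNOT3 as for GRPEL2. PI4K2A, a phosphatidylinositol 4-kinase (chromosome 10, 97640671 to 97676434), had 26.6% and 29.9% (8 h) and 9.75% and 12.1% (12 h) in sgCNOT3, against 6.83% and 6.33% (8 h) and 2.19% and 2.48% (12 h) in sgNT (log2 difference 2.05 ± 0.16 SE, adjusted p = 0.0046). Here the 0 h values overlapped, with 42.4% and 44.98% in sgCNOT3 and 45.3% and 38.1% in sgNT. PCBP1, a poly(C)-binding protein encoded without introns (chromosome 2, 70087477 to 70089203), had 35.4% and 36.1% (8 h) and 17.7% and 19.3% (12 h) in sgCNOT3, against 16.1% and 14% (8 h) and 5.37% and 5.68% (12 h) in sgNT. It started alike, at 65.3% and 59.02% in sgCNOT3 and 63.2% and 65.6% in sgNT, and its late difference was 16.8 ± 1.87 percentage points (SE, adjusted p = 0.010).

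ZNF282, a zinc finger protein, had 32.1% and 29.04% (8 h) and 9.67% and 11.5% (12 h) in sgCNOT3, against 6.40% and 7.28% (8 h) and 2.89% and 2.83% (12 h) in sgNT (log2 difference 1.94 ± 0.16 SE, adjusted p = 0.0046). The mitochondrial GTPase NOA1 had 34.6% and 37.1% (8 h) and 19.6% and 22.9% (12 h) in sgCNOT3, against 13.2% and 14.4% (8 h) and 5.65% and 7.11% (12 h) in sgNT, a difference of 18.5 ± 1.93 percentage points (SE, adjusted p = 0.010). For TCEAL1 the values were 26.9% and 31.3% (8 h) and 17% and 16.9% (12 h) in sgCNOT3, against 9.82% and 9.72% (8 h) and 4.52% and 4.77% (12 h) in sgNT (log2 difference 1.66 ± 0.12 SE, adjusted p = 0.0041). The groups did not overlap at either time for any of the 3. At 0 h all 3 were lower in sgCNOT3, with 35.9% and 35.6% in sgCNOT3 and 39.8% and 37.2% in sgNT for ZNF282, 26.99% and 31.8% in sgCNOT3 and 49.3% and 36.9% in sgNT for NOA1 and 12.2% and 26.6% in sgCNOT3 and 44.4% and 51.3% in sgNT for TCEAL1. Relative to the 0 h contrast, the late difference of these 3 genes was 2.04 for ZNF282, 2.06 for NOA1 and 3.05 for TCEAL1 on the log2 scale, and each passed the test.

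RPS27A, which encodes ubiquitin fused to a ribosomal protein (chromosome 2, 55231903 to 55235853), showed the level pattern. Its conversion was 24.4% and 25.2% (8 h) and 25.6% and 26.1% (12 h) in sgCNOT3, against 13.4% and 13.97% (8 h) and 13.04% and 12.8% (12 h) in sgNT, and at 0 h 24.2% and 24.6% in sgCNOT3 and 13.2% and 12.9% in sgNT. Its late difference of 12.01 ± 1.09 percentage points (SE, adjusted p = 0.0092) therefore stood beside a like difference at the start, and late minus 0 h was 0.03 on the log2 scale (adjusted p = 0.92). UQCRQ, a subunit of respiratory complex III, was alike, with 24.98% and 24.8% (8 h) and 24.8% and 25.3% (12 h) in sgCNOT3, against 12.9% and 12.3% (8 h) and 14.4% and 12.6% (12 h) in sgNT and 0 h values of 27.7% and 27.4% in sgCNOT3 and 15.9% and 15.1% in sgNT (late minus 0 h 0.10, adjusted p = 0.71). The tenth gene by this rule was the histone gene H2AC25, with 35.1% and 38.4% (8 h) and 26.6% and 26.5% (12 h) in sgCNOT3, against 21.7% and 22.03% (8 h) and 15.4% and 13.8% (12 h) in sgNT (log2 difference 0.79 ± 0.07 SE, adjusted p = 0.0050). After centring the log2 differences of RPS27A, UQCRQ and H2AC25 were 0.22, 0.23 and 0.11 and no longer passed, although as centred points all 3 still passed (adjusted p = 0.026 for RPS27A, 0.023 for UQCRQ and 0.026 for H2AC25). The other 7 kept their ratio calls after centring, from 0.77 (PCBP1) to 2.18 (ZNF622), while PI4K2A and ZNF282 did not pass as centred points (adjusted p = 0.055 for PI4K2A and 0.065 for ZNF282).

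**Figure D3:**
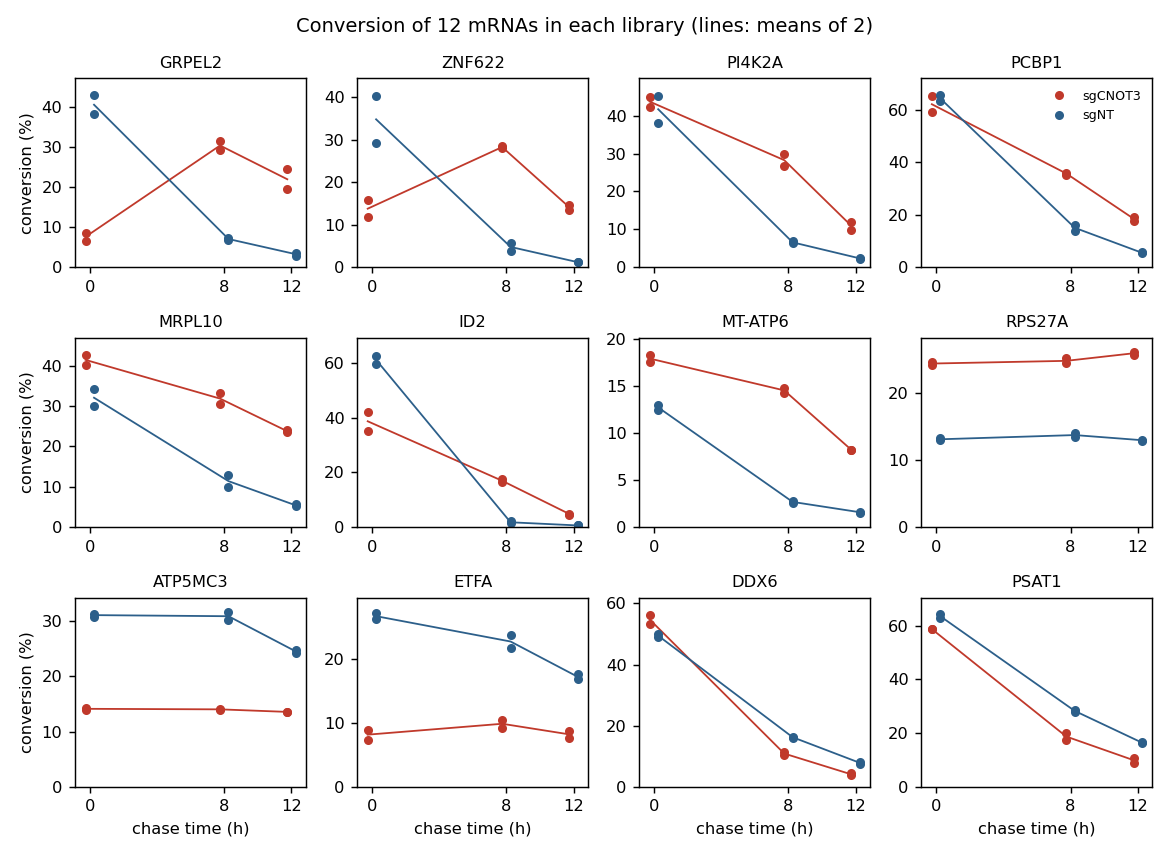
Conversion in percent (vertical axis) of 12 named mRNAs against chase time in hours, with each library as a point, sgCNOT3 in red just left of sgNT in blue, and lines through the means of 2. The top row and ID2 end far above sgNT from a like or lower start, and RPS27A runs level. ATP5MC3 runs level in sgCNOT3 and falls in sgNT at 12 h, DDX6 falls below sgNT late, and PSAT1 stays below it.

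Coding sequence of these 10 genes is given because the study examined CGG, CGA and AGG arginine codons. For the 4 with the largest share of these codons, the in-frame stretch of 10 codons with the most of them is shown, from GENCODE release 44, with CGG, CGA and AGG in capitals.
NOA1: CGAcagAGGcagcagCGGCGGgaggagCGG
PI4K2A: gagCGGcagccactgttggatCGGgccCGG
GRPEL2: gtaCGGtcgctgtgggcgggcCGGctgCGG
UQCRQ: cgcgagtttgggaatctgacgCGGatgCGG
The stretch of NOA1 spans codons 103 to 112 of 698 on chromosome 4 and holds 5 of them, that of PI4K2A codons 57 to 66 of 479 on chromosome 10, and those of GRPEL2 and UQCRQ codons 3 to 12 on chromosome 5. The 3 codons made up 4.44% of all codons of NOA1, 4.59% of PI4K2A, 4.89% of GRPEL2 and 4.88% of UQCRQ. The rest of the 10 had 4.19% (ZNF622), 3.43% (ZNF282), 2.53% (PCBP1), 2.52% (TCEAL1), 1.28% (RPS27A) and 0.77% (H2AC25). With all genes with a coding sequence in 5 bins by this share, the middle bin had a median of 2.86%.

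The largest differences in points came from mRNAs whose values lay far apart within a genotype. TSSK3, a testis-specific serine kinase, had 75% and 16.98% (8 h) and 100% and 88.9% (12 h) in sgCNOT3, against 0% in all 4 late sgNT libraries. EPGN, an epidermal growth factor family ligand, had 36.4% and 17.6% (8 h) and 66.7% and 80% (12 h) in sgCNOT3, against 0% in all 4 late sgNT libraries. The gene ENSG00000262304 (chromosome 17, 3585149 to 3636249) had 100% and 100% (8 h) and 60% and 37.5% (12 h) in sgCNOT3, against 0% in all 4 late sgNT libraries. With values listed at 0 in sgNT a ratio for these 3 would rest on the pseudocount, and as points the differences were 70.2 ± 14.9 percentage points (SE, adjusted p = 0.027) for TSSK3, 50.2 ± 10.1 percentage points (SE, adjusted p = 0.024) for EPGN and 74.4 ± 10.98 percentage points (SE, adjusted p = 0.015) for ENSG00000262304. At 0 h TSSK3 stood at 2.04% and 9.41% in sgCNOT3 and 28.6% and 27.3% in sgNT, so its late label in sgCNOT3 was above its start. Its sgNT libraries were listed at 0 already at 2 and 4 h. At 4 h ENSG00000262304 had 0% and 0% in sgCNOT3 and 100% and 0% in sgNT, and EPGN had 0% and 6.15% in sgCNOT3. The late sgCNOT3 values of ENSG00000262304 and EPGN thus lay above those at 4 h and do not follow a steady loss of label.

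BTN3A3, of the butyrophilin family, had 57.1% and 55.2% (8 h) and 42.9% and 58.8% (12 h) in sgCNOT3, against 0% and 0% (8 h) and 0% and 16% (12 h) in sgNT, a difference of 49.5 ± 5.24 percentage points (SE, adjusted p = 0.010). The orphan nuclear receptor NR5A2 had 33.3% and 15.4% (8 h) and 60% and 60% (12 h) in sgCNOT3, against 9.09% and 0% (8 h) and 0% and 0% (12 h) in sgNT. SAMD15 had 54.5% and 4.76% (8 h) and 42.9% and 53.3% (12 h) in sgCNOT3, against 0% in all 4 late sgNT libraries, and the neurotrophic factor CNTF had 47.4% and 35% (8 h) and 59.1% and 33.3% (12 h) in sgCNOT3, against 22.2% and 0% (8 h) and 0% and 0% (12 h) in sgNT. All 4 had both sgCNOT3 values above both sgNT values at each time. KIRREL1, an adhesion molecule of the kidney filter, had 40.5% and 25% (8 h) and 69.2% and 60% (12 h) in sgCNOT3, against 12.5% and 12.5% (8 h) and 0% and 19.2% (12 h) in sgNT, and passed as points, by 37.6 ± 8.54 percentage points (SE, adjusted p = 0.032), but not as a ratio (adjusted p = 0.14). With 1 library left out, the ratio calls of BTN3A3, CNTF and NR5A2 were lost in 4, 7 and 6 of 8 cases, with adjusted p up to 0.065, 0.092 and 0.074. As points, the calls of TSSK3, EPGN, NR5A2, SAMD15 and KIRREL1 were lost in 7 of 8 cases. In all, 71 genes were listed at 0 in all 4 late sgNT libraries and above 0 in all 4 sgCNOT3 libraries, and 0 genes were the other way round. These 71 genes had a median conversion of 42.4% of their 0 h value left at 4 h in sgNT, against 69.3% over all genes.

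The mRNAs with less late label in sgCNOT3 were mostly long-lived in sgNT. The 186 genes had a median of 87.5% of the 0 h conversion left at 4 h, against 69.3% over all genes. ATP5MC3, the membrane ring subunit of mitochondrial ATP synthase (ENSG00000154518.10, chromosome 2, 175176258 to 175181710), had 13.98% and 14.1% (8 h) and 13.6% and 13.5% (12 h) in sgCNOT3, against 31.7% and 30.1% (8 h) and 24.9% and 24.2% (12 h) in sgNT (log2 difference -0.98 ± 0.08 SE, adjusted p = 0.0046). At 0 h it already stood at 14.3% and 13.9% in sgCNOT3 and 30.8% and 31.3% in sgNT. ETFA, of the electron transfer flavoprotein, had 10.5% and 9.18% (8 h) and 7.59% and 8.75% (12 h) in sgCNOT3, against 21.7% and 23.6% (8 h) and 17.5% and 16.8% (12 h) in sgNT, with 0 h values of 7.36% and 8.89% in sgCNOT3 and 27.1% and 26.1% in sgNT. SDHC, a membrane anchor of respiratory complex II, had 11.9% and 12.5% (8 h) and 11.2% and 12.2% (12 h) in sgCNOT3, against 23.9% and 26.2% (8 h) and 21.8% and 19.8% (12 h) in sgNT (log2 difference -0.91 ± 0.09 SE, adjusted p = 0.0055). ATP5MC3 and ETFA thus ended the chase in sgCNOT3 near the level at which they started it. Late minus 0 h of the 3 genes was 0.14, 0.57 and 0.07 on the log2 scale, none of which passed.

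PSMA1, a subunit of the 20S proteasome core, had 19.3% and 20.4% (8 h) and 13.8% and 14.2% (12 h) in sgCNOT3, against 30.2% and 31.8% (8 h) and 21.3% and 21.8% (12 h) in sgNT (log2 difference -0.62 ± 0.06 SE, adjusted p = 0.0055). Its 0 h values were 19.7% and 21.7% in sgCNOT3 and 44.1% and 45.3% in sgNT, a wider gap than late, and late minus 0 h was 0.48 (adjusted p = 0.043). CCT8, of the TRiC chaperonin that folds actin and tubulin, had 16.5% and 16.1% (8 h) and 10.3% and 11.8% (12 h) in sgCNOT3, against 26.3% and 25.8% (8 h) and 18.1% and 17.4% (12 h) in sgNT. The actin bundler PLS3 had 8.79% and 10.3% (8 h) and 9.16% and 9.25% (12 h) in sgCNOT3, against 22.3% and 23.8% (8 h) and 16.2% and 17.4% (12 h) in sgNT. The lysosomal proteins FUCA2 and LAMP2 followed, with late differences of -13.5 ± 1.87 percentage points (SE, adjusted p = 0.013) for FUCA2 and -7.77 ± 1.17 percentage points (SE, adjusted p = 0.015) for LAMP2. All 8 genes of this group were also lower after centring, by log2 differences from -1.82 (FUCA2) to -1.29 (LAMP2). Relative to the starting label, with each late value taken as a share of its genotype's mean 0 h conversion and rescaled to the mean of both, all but FUCA2 turned to positive log2 differences, between 0.061 (SDHC) and 0.56 (ETFA). There ETFA, PSMA1, CCT8 and PLS3 passed as higher as a ratio (adjusted p = 0.011 for ETFA, 0.0047 for PSMA1, 0.0066 for CCT8 and 0.047 for PLS3). FUCA2 still passed as lower (adjusted p = 0.021). The 0 h means entered as fixed values, so these adjusted p leave out the spread between libraries at 0 h. Limma's late minus 0 h contrast includes that spread. By it PSMA1 passed, and ETFA (adjusted p = 0.18), CCT8 (0.057), PLS3 (0.29) and FUCA2 (0.23) did not.

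By points, the genes with the largest loss were RAMACL, PLEKHG4, RABL2B and CFDP1. RAMACL had 50.7% and 14.7% (8 h) and 36.2% and 29.4% (12 h) in sgCNOT3, against 65% and 74.3% (8 h) and 100% and 66.7% (12 h) in sgNT, a wide spread within groups, and its ratio call was lost in 7 of 8 cases with 1 library left out (adjusted p up to 0.12). PLEKHG4 had 30.8% and 16.5% (8 h) and 10.6% and 1.35% (12 h) in sgCNOT3, against 38.5% and 33.3% (8 h) and 44.4% and 52% (12 h) in sgNT and passed as points alone, a call that was lost in 7 of 8 cases with 1 library left out (adjusted p up to 0.095). RABL2B had 22.2% and 23.98% (8 h) and 23.1% and 19.4% (12 h) in sgCNOT3, against 43.6% and 47.1% (8 h) and 32.7% and 31.9% (12 h) in sgNT (log2 difference -0.78 ± 0.10 SE, adjusted p = 0.0073). CFDP1 had 21.6% and 16.96% (8 h) and 15.9% and 20.1% (12 h) in sgCNOT3, against 33.03% and 31.9% (8 h) and 35.3% and 33.3% (12 h) in sgNT, with 21.2% and 21.7% in sgCNOT3 and 43.2% and 39.5% in sgNT at 0 h. RABL2B and RAMACL have near-identical copies elsewhere in the genome, as do NPM1, PGAM1, MT-ATP6 and the ribosomal protein and histone genes named here, and their reads may not have been told apart.

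Members of the decay machinery itself were described from 2 of the 20 gene lists. The counts of each list are read against the shares over all genes, which were 19.4% higher and 1.59% lower as a ratio, and 3.11% and 13.2% after centring. Of 26 measured genes of CCR4-NOT and other deadenylases and their partners, 9 were higher (34.6%) and 0 lower as a ratio (median log2 difference 0.68, against 0.63 over all genes). After centring 1 was higher and 5 were lower. PABPN1, the nuclear poly(A)-binding protein, had 27.6% and 29.1% (8 h) and 17.6% and 19.3% (12 h) in sgCNOT3, against 19.7% and 20.6% (8 h) and 11.7% and 11.3% (12 h) in sgNT (log2 difference 0.58 ± 0.08 SE, adjusted p = 0.0086), and after centring its difference was -0.11. Of 46 decapping, exosome and nonsense-mediated decay factors, 9 were higher (19.6%, close to the 19.4% of all genes) and 1 lower (median 0.41), and 2 and 12 after centring. LSM4, of the ring that binds deadenylated 3′ ends, had 23.7% and 25.8% (8 h) and 20.4% and 20.99% (12 h) in sgCNOT3, against 15.8% and 15.2% (8 h) and 14.2% and 14.2% (12 h) in sgNT. It was higher at 0 h too (26.3% and 25.5% in sgCNOT3 and 16.03% and 14% in sgNT), and its difference turned to -0.089 after centring.

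DDX6, the helicase that activates decapping and binds CCR4-NOT, was the 1 member of these lists called lower. It had 10.3% and 11.5% (8 h) and 3.72% and 4.39% (12 h) in sgCNOT3, against 16.05% and 16.4% (8 h) and 8.27% and 7.39% (12 h) in sgNT (log2 difference -0.73 ± 0.16 SE, adjusted p = 0.026). Its start went the other way and did not overlap, at 56.2% and 53.2% in sgCNOT3 and 50.03% and 48.9% in sgNT, and late minus 0 h was -0.87 (adjusted p = 0.029). The late call was lost with any 1 library left out (adjusted p = 0.050 to 0.062), while the direction did not turn.

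Mitochondrial genes were described from 3 lists. Of 79 mRNAs for mitochondrial ribosomal proteins, encoded in the nucleus, 46 were higher (58.2%, against 19.4% of all genes) and 1 was lower (1.27%, against 1.59%). Their medians were 0.60 and 6.86 points, against 0.63 and 3.63 points over all genes. Relative to 0 h 28 of the 79 were higher, against 900 of 11692 over all genes (7.7%). After centring 8 were higher and 18 lower. MRPL10, of the large subunit, had 30.5% and 33.2% (8 h) and 24.01% and 23.5% (12 h) in sgCNOT3, against 9.95% and 12.8% (8 h) and 5.64% and 5.12% (12 h) in sgNT (log2 difference 1.77 ± 0.16 SE, adjusted p = 0.0050), a difference of 19.4 ± 1.32 percentage points (SE, adjusted p = 0.0080). MRPS21, of the small subunit, was the 1 lower member, with 20.7% and 19.1% (8 h) and 13.4% and 14.8% (12 h) in sgCNOT3, against 27.95% and 26.97% (8 h) and 18% and 17.6% (12 h) in sgNT and 0 h values of 24.99% and 25.6% in sgCNOT3 and 36.4% and 34.2% in sgNT. Its call was lost in 2 of 8 cases with 1 library left out (adjusted p up to 0.057). Of 78 nuclear respiratory chain subunits, 30 were higher (38.5%) and 6 lower (7.69%), with a median of 0.15, and after centring 0 were higher and 43 lower, with UQCRQ and ATP5MC3 at the ends.

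The mRNAs made from mitochondrial DNA are made and degraded inside the organelle, apart from the cytoplasmic deadenylase. All 4 such genes in the table, MT-ATP6, MT-ATP8, MT-CO2 and MT-ND4L, were higher on both scales (median log2 difference 2.13, 6.69 points). Values are per gene, and whether these genes lie on separate mRNAs was not examined. MT-ATP6, a subunit of ATP synthase, had 14.3% and 14.8% (8 h) and 8.18% and 8.25% (12 h) in sgCNOT3, against 2.54% and 2.81% (8 h) and 1.53% and 1.63% (12 h) in sgNT (log2 difference 2.23 ± 0.25 SE, adjusted p = 0.0059), and 0 h values of 18.3% and 17.6% in sgCNOT3 and 12.99% and 12.5% in sgNT. The differences of the other 3 were 2.03 for MT-ATP8, 1.78 for MT-CO2 and 2.33 for MT-ND4L. They were named because their number was small, after their values were seen. After centring 2 of the 4 still passed. At 0 h the median conversion of the 4 was 25.4% in sgCNOT3 and 14.8% in sgNT. Relative to 0 h 1 of the 4, MT-ATP6, was higher, against 7.7% of all genes.

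The lists of short-lived and regulated mRNAs had median ratios above that of all genes. Of 37 immediate early and AU-rich mRNAs, 10 were higher (27%, against 19.4% of all genes) and 0 lower (median 1.36, 3.03 points). ID2, an inhibitor of helix-loop-helix factors, had 16.5% and 17.4% (8 h) and 4.58% and 4.95% (12 h) in sgCNOT3, against 2.10% and 1.38% (8 h) and 0.570% and 0.591% (12 h) in sgNT (log2 difference 2.77 ± 0.35 SE, adjusted p = 0.0072), a ratio of 6.82, from 0 h values of 42.2% and 35.3% in sgCNOT3 and 62.8% and 59.7% in sgNT. Of 30 p53 targets, 16 were higher (53.3%) and 0 lower (median 1.71, 5.44 points). The oxidoreductase TP53I3 had 4.69% and 2.68% (8 h) and 8.99% and 16.5% (12 h) in sgCNOT3, against 0% in all 4 late sgNT libraries, and passed as a ratio but not as points (adjusted p = 0.057). Of 25 stress response and amino acid genes, 8 were higher (32%) and 2 lower (median 0.68). CHAC1, which degrades glutathione, had 12.8% and 12.5% (8 h) and 1.67% and 2.79% (12 h) in sgCNOT3, against 0% in all 4 late sgNT libraries. PSAT1, of serine synthesis, was lower, with 19.9% and 17.5% (8 h) and 8.99% and 10.8% (12 h) in sgCNOT3, against 27.7% and 28.7% (8 h) and 16.2% and 16.6% (12 h) in sgNT (log2 difference -0.65 ± 0.10 SE, adjusted p = 0.0098) from 0 h values of 58.6% and 58.7% in sgCNOT3 and 62.8% and 64.2% in sgNT, which were lower in sgCNOT3 by a smaller ratio (late minus 0 h -0.54, adjusted p = 0.050, just past the threshold). The first 2 of these lists share members, such as BTG2. After centring 4 were higher and 1 lower in the first list, 3 and 2 among p53 targets, and 2 and 5 among stress genes.

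Of 406 ZNF zinc finger genes, 53 were higher and 0 lower (13.1%, under the 19.4% of all genes, with a median of 1.09). ZNF396 had 27.9% and 32.9% (8 h) and 10.5% and 10.9% (12 h) in sgCNOT3, against 0% in all 4 late sgNT libraries. Of 127 homeobox and other developmental regulators, 23 were higher (18.1%) and 0 lower (median 1.23), among them the homeobox gene MEIS3, with 18.5% and 15.2% (8 h) and 5.88% and 23.5% (12 h) in sgCNOT3, against 0% in all 4 late sgNT libraries. The median conversion of the ZNF list at 12 h was 3.60% in sgCNOT3 and 1.39% in sgNT, so that many members lay near the pseudocount, where ratios are compressed. After centring 11 were higher and 5 lower in the ZNF list, and 9 and 1 in the developmental list.

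The lists with the lowest medians were those of core metabolism, translation and proteolysis. The 83 cytosolic ribosomal protein mRNAs had 16 higher (19.3%, against 19.4% of all genes) and 7 lower (8.43%, against 1.59%), with a median of 0.09, and after centring 1 was higher and 51 lower. Of 25 glycolysis and pentose phosphate enzymes, 1 was higher (4%) and 4 lower (16%), with a median of 0.11, and 0 and 14 after centring. PGAM1, a phosphoglycerate mutase, was the 1 higher, with 47.2% and 46.05% (8 h) and 37.9% and 39.3% (12 h) in sgCNOT3, against 35.1% and 36.7% (8 h) and 30.8% and 31.7% (12 h) in sgNT, and after centring its log2 difference was -0.35 and passed as lower (adjusted p = 0.048), while as centred points it was 4.48 higher and did not pass (adjusted p = 0.21). The 4 lower were TALDO1 (transaldolase, -0.52), TKT (transketolase, -0.66), LDHB (lactate dehydrogenase, -0.36) and PGK1 (phosphoglycerate kinase, -0.29), the last 3 named after their values were seen. TALDO1 had 14.4% and 13.8% (8 h) and 12.3% and 13.7% (12 h) in sgCNOT3, against 19.7% and 19.6% (8 h) and 20.02% and 19.01% (12 h) in sgNT, with 12.5% and 13.8% in sgCNOT3 and 21.7% and 23.4% in sgNT at 0 h. Of 34 proteasome subunits, 9 were higher (26.5%) and 2 lower (5.88%), with a median of 0.09. PSMA6, of the same core ring as PSMA1, had 36.99% and 36.97% (8 h) and 30% and 29.96% (12 h) in sgCNOT3, against 22.5% and 24.8% (8 h) and 21.9% and 17.2% (12 h) in sgNT and went the other way, with 40.8% and 37.4% in sgCNOT3 and 28.4% and 29.2% in sgNT at 0 h. Its log2 difference turned to -0.059 after centring, when 0 proteasome members were higher and 21 lower as a ratio, while as centred points PSMA6 was still higher, by 7.30 (adjusted p = 0.039).

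Of 22 cytosolic tRNA synthetases, 5 were higher (22.7%, against 19.4% of all genes) and 3 lower (13.6%, against 1.59%), with a median of 0.30, and 0 and 7 after centring. SARS1, which charges serine tRNA, had 32.6% and 32.6% (8 h) and 20.2% and 18.2% (12 h) in sgCNOT3, against 17.9% and 16.5% (8 h) and 13.5% and 8.95% (12 h) in sgNT. EPRS1, which charges glutamate and proline tRNA, had 11.4% and 9.56% (8 h) and 6.10% and 6.49% (12 h) in sgCNOT3, against 19.1% and 20.5% (8 h) and 11.9% and 13.7% (12 h) in sgNT. Of 67 heat shock proteins and chaperones, 13 were higher (19.4%, as over all genes) and 5 lower (7.46%), with a median of 0.41, and 0 and 20 after centring. The histone co-chaperone DNAJC9 had 36.9% and 37.5% (8 h) and 13.5% and 15.01% (12 h) in sgCNOT3, against 20.3% and 20.1% (8 h) and 6.59% and 5.25% (12 h) in sgNT (log2 difference 1.05 ± 0.12 SE, adjusted p = 0.0066) from 0 h values of 54.5% and 47.8% in sgCNOT3 and 58.9% and 54.8% in sgNT, lower in sgCNOT3. Of 29 cholesterol and fatty acid synthesis genes, 9 were higher (31%) and 1 lower (median 0.52), and 1 and 7 after centring. The sterol isomerase EBP had 24.2% and 26.7% (8 h) and 19.7% and 20.04% (12 h) in sgCNOT3, against 13.6% and 14.04% (8 h) and 9.60% and 11.5% (12 h) in sgNT. ACLY, which makes cytosolic acetyl-CoA, had 25.2% and 23.6% (8 h) and 18.6% and 17.4% (12 h) in sgCNOT3, against 28.3% and 29.3% (8 h) and 21.1% and 21.7% (12 h) in sgNT, and its call was lost with any 1 library left out (adjusted p = 0.059 to 0.093).

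Lists of ribosome production and cell division were also counted. Of 83 ribosome biogenesis factors, 34 were higher (41%) and 2 lower (median 0.67, against 0.63 over all genes), and 8 and 19 after centring. The nucleolar helicase DDX56 had 18.3% and 24.4% (8 h) and 17.2% and 15.1% (12 h) in sgCNOT3, against 6.66% and 6.89% (8 h) and 4.47% and 4.94% (12 h) in sgNT (log2 difference 1.65 ± 0.15 SE, adjusted p = 0.0050). NPM1, the nucleolar chaperone nucleophosmin, had 12.1% and 12.4% (8 h) and 11.2% and 11.8% (12 h) in sgCNOT3, against 21.9% and 20.8% (8 h) and 16.7% and 17.6% (12 h) in sgNT, from 10.6% and 10.8% in sgCNOT3 and 21.5% and 24.1% in sgNT at 0 h. Of 54 G2 and mitosis genes, 15 were higher (27.8%) and 1 lower (median 0.48), and 0 and 8 after centring. The cyclin-dependent kinase subunits CKS2 and CKS1B were the leading ones in each direction, with 50.4% and 48.6% (8 h) and 32.6% and 36.7% (12 h) in sgCNOT3, against 32.3% and 34.1% (8 h) and 21.2% and 20.98% (12 h) in sgNT for CKS2, and with 21.3% and 22.7% (8 h) and 12.6% and 14.7% (12 h) in sgCNOT3, against 29.3% and 29.4% (8 h) and 18.4% and 18.8% (12 h) in sgNT for CKS1B. The log2 difference of CKS2 turned to -0.051 after centring, while as centred points it was still higher, by 10.3 (adjusted p = 0.026). Of 57 DNA replication genes, 15 were higher (26.3%) and 1 lower (median 0.44), and 1 and 15 after centring. The licensing factor CDT1 had 17.5% and 19.4% (8 h) and 7.32% and 10.9% (12 h) in sgCNOT3, against 2.87% and 2.85% (8 h) and 2.11% and 1.07% (12 h) in sgNT (log2 difference 2.44 ± 0.30 SE, adjusted p = 0.0072). RPA1, of the single-strand binding complex, had 13.7% and 13.9% (8 h) and 8.04% and 10.9% (12 h) in sgCNOT3, against 24.3% and 23.5% (8 h) and 11.2% and 12.1% (12 h) in sgNT. RPA1 started far lower in sgCNOT3, at 15.5% and 17.5% in sgCNOT3 and 51.9% and 47.9% in sgNT, and its call was lost in 7 of 8 cases with 1 library left out (adjusted p up to 0.12). Of 68 listed replication-dependent histone genes only 15 were measured, so the counts do not stand for the whole list. Of these 15, 5 were higher (33.3%) and 0 lower (median 1.14), and 0 and 0 after centring. Their median label left at 4 h in sgNT was 92.3%, against 69.3% over all genes.

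Relative to the starting label, the differences of MRPS21, NPM1, CKS1B, RPA1, TALDO1 and CFDP1 turned to positive log2 values, between 0.079 (MRPS21) and 1.02 (RPA1), and that of LSM4 turned to -0.17. Of these, NPM1 and RPA1 passed as higher (adjusted p = 0.023 for NPM1 and 0.0058 for RPA1). These adjusted p also leave out the spread between libraries at 0 h. By limma's late minus 0 h contrast RPA1 passed (adjusted p = 0.024) and NPM1 did not (adjusted p = 0.22).

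**Figure D4:**
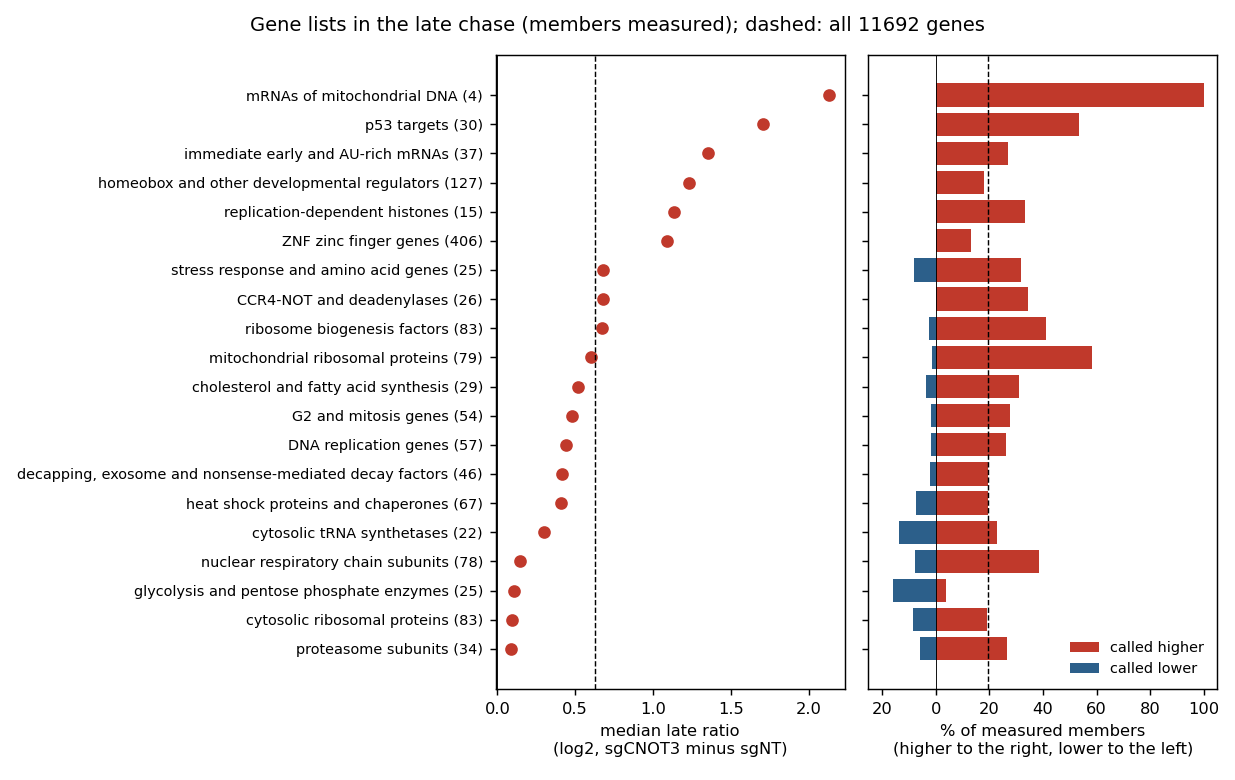
The median late log2 difference of each gene list (left, points) and the percentage of its measured members called higher (red, to the right) or lower (blue, to the left), with the number measured in brackets and dashed lines for all genes (0.63 and 19.4%). The median runs between 0.09 for proteasome subunits and 2.13 for the 4 genes of mitochondrial DNA.

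The late difference was also set against the decay order of mRNAs in sgNT. Genes were ordered by the conversion left at 4 h in sgNT as a percentage of 0 h, from libraries outside the late chase. Over 5 bins of equal size, from the least label left to the most, the median log2 difference was 1.23, 0.80, 0.54, 0.36 and 0.53. In points the medians were 3.10, 3.62, 3.68, 3.51 and 4.50. The ratio was thus largest in the shortest-lived bin and smallest in the fourth, while points were largest in the bin with the most label left. That bin ran from 89.9% to 699% left, and its median conversion at 0 h was 29.98% in sgCNOT3 and 25.6% in sgNT. Median late minus 0 h fell over the 5 bins, at 1.12, 0.75, 0.58, 0.37 and 0.29 on the log2 scale. The order of the bins and late minus 0 h both use the sgNT libraries at 0 h. They are thus not independent, and no conclusion is drawn from this fall. Genes called higher numbered 312, 468, 538, 498 and 454 over these bins, and genes called lower 2, 10, 32, 67 and 75. In the 1169 genes with the least label left, the median conversion was 6.79% and 7.02% in sgCNOT3 and 1.94% and 1.99% in sgNT at 8 h. At 12 h it was 2.11% and 2.94% in sgCNOT3 and 0% in both sgNT libraries. When these library medians were subtracted as a floor, 379 genes were higher and 487 lower as a ratio, and 271 and 395 as points.

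The late difference also followed the base and codon composition of the coding sequence, taken from 1 transcript for each of 11574 genes. Over 5 bins of genes by GC content, low to high, the median log2 difference was 0.42, 0.46, 0.60, 0.72 and 1.08, and in points 2.18, 2.57, 3.91, 4.54 and 5.34. Over 5 bins by the share of CGG, CGA and AGG codons it was 0.45, 0.56, 0.59, 0.69 and 0.88, and in points 2.70, 3.10, 3.30, 4.13 and 5.21. Among the 1000 genes richest in these codons 332 were higher and 11 lower (median 0.87). Among the 734 richest in CGC, AGA and CGU, which also encode arginine, after genes of the first set were left out, 180 were higher and 22 lower (median 0.74), and among the 1000 richest in codons for asparagine, lysine, isoleucine, tyrosine, phenylalanine and methionine and in ACU 162 were higher and 28 lower (median 0.35). Of all genes with a coding sequence 2239 of 11574 were higher (19.3%) and 185 lower (1.60%). The shares called higher in the 3 codon sets, in the order given, were 33.2%, 24.5% and 16.2%. The shares called lower were 1.1%, 3.00% and 2.8%.

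Within each GC bin, the genes with more CGG, CGA and AGG codons than the bin's middle gene had a larger median than those with fewer, with 0.47 against 0.38 in the lowest GC bin and 0.50 against 0.41, 0.64 against 0.58, 0.85 against 0.62 and 1.09 against 1.07 in the next. Genes called higher in these pairs numbered 164 against 113, 215 against 160, 288 against 230, 290 against 236 and 311 against 232. Each group held 1157 or 1158 genes. As shares these were 14.2% against 9.77%, 18.6% against 13.8%, 24.9% against 19.9%, 25.04% against 20.4% and 26.9% against 20.1%. Over all genes with a coding sequence the share was 19.3%. Over 5 bins of coding length, short to long, the median log2 difference was 0.50, 0.62, 0.69, 0.72 and 0.61, while in points it was 4.47, 4.21, 3.87, 3.45 and 2.50. Genes called higher as a ratio numbered 660, 558, 440, 372 and 209 over these bins. Their shares were 28.5%, 24.1%, 19.0%, 16.1% and 9.03%, against 19.3% of all genes with a coding sequence. Over 5 bins of 3′ UTR length, short to long, the medians were 0.57, 0.69, 0.63, 0.62 and 0.64, and 3.85, 4.01, 3.74, 3.42 and 3.30 points. Genes are not independent replicates, so these are descriptions, with no test.

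**Figure D5:**
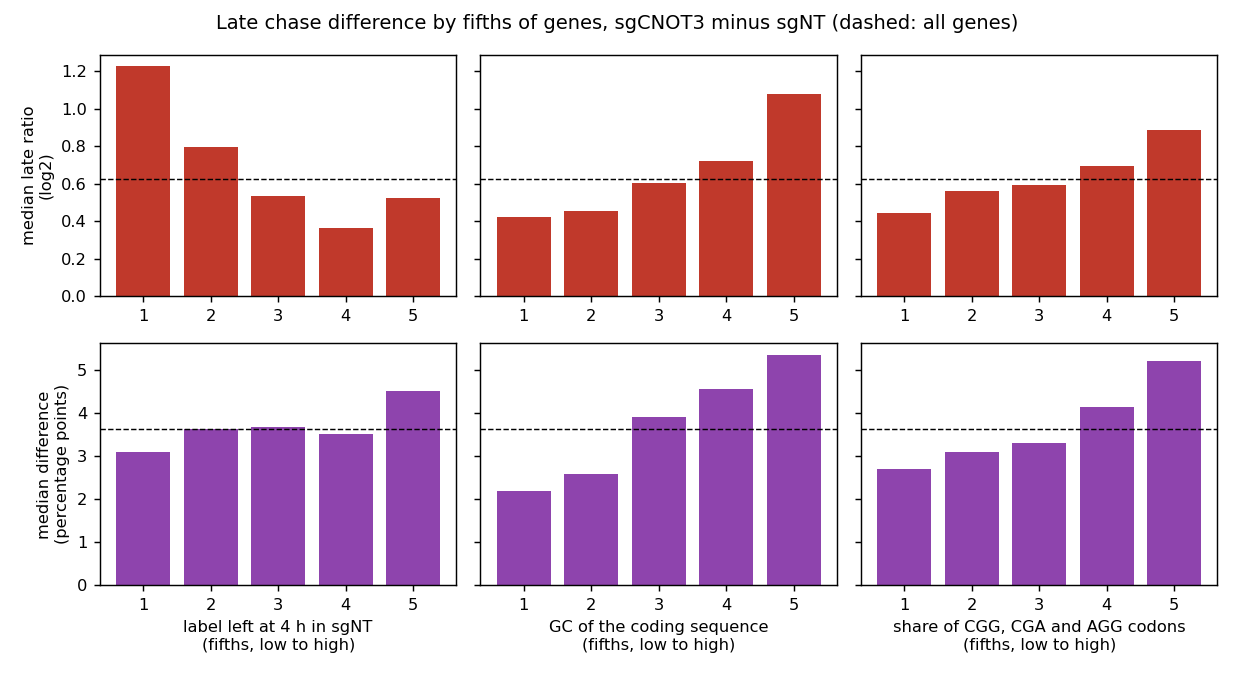
Median late difference of 5 bins of genes as a log2 ratio (top) and in percentage points (bottom), sgCNOT3 minus sgNT, by label left at 4 h in sgNT, GC of the coding sequence and share of CGG, CGA and AGG codons, with dashed lines for all genes. The ratio is 1.23 in the bin with the least label left and 0.53 in that with the most, while both scales rise with GC and with the codon share.

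The 2 late times were then taken apart, in a model with 4 group means. At 8 h 177 genes were higher (1.51%) and 19 lower (0.163%), with a median log2 difference of 0.51 and 4.24 points. At 12 h 1288 were higher (11%) and 77 lower (0.659%), with medians of 0.67 and 2.63 points. The median difference was thus larger as a ratio and smaller in points at 12 h than at 8 h. Of the genes called higher, 119 were shared by both times, 67.2% of those at 8 h and 9.24% of those at 12 h. The counts at 1 time rested on single libraries. Without sgCNOT3 8 h replicate 1 or 2, 97 and 95 genes in all passed at 8 h in place of 196, and 0 did without sgNT 8 h replicate 1 or 2 (2017 and 2180 at an unadjusted p under 0.05). At 12 h 98 and 5 passed without sgCNOT3 12 h replicate 1 or 2 in place of 1365, and 865 without sgNT 12 h replicate 2.

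A change of the difference between 8 and 12 h was found for few genes, 12 higher (0.103%) and 5 lower (0.0428%) by limma, with 951 at an unadjusted p under 0.05. Of the 17, 16 were listed at 0 in some late library, and 11 of the 12 higher were listed at 0 in both sgNT libraries at 12 h. The 1 gene above 0 in all 8 late libraries was ARRB1 (chosen after its values were seen), a signalling adaptor of receptors, with 3.85% and 4.62% in sgCNOT3 and 16.4% and 13.2% in sgNT at 8 h. At 12 h ARRB1 had 33.3% and 27.8% in sgCNOT3 and 7.14% and 8.82% in sgNT, so its order turned round between the times. The count of 17 was 1 or 2 without any 1 of 6 libraries, and 87 and 75 without sgCNOT3 8 h replicate 1 or 2.

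Against the middle chase (2 and 4 h), the late difference was higher for 1406 genes (12%) and lower for 15 (0.128%). After centring 18 were higher and 1 was lower. The 1421 calls fell to 947 and 893 without sgCNOT3 8 h replicate 1 or 2, to 929 and 812 without sgNT 2 h replicate 1 or 2, and to 917 without sgNT 4 h replicate 1. The 2 sgCNOT3 libraries at 2 h had medians of 29.2% and 18.2% and a Spearman correlation of 0.29 over genes, against 0.64 to 0.70 within the 4 late groups. With 4 h alone as the middle chase, an alternative chosen after seeing the data, 327 were higher and 2 lower.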

How the data were processed

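The 24 libraries (2 per genotype at 0, 1, 2, 4, 8 and 12 h) are described by 1 table that the authors deposited, which gives the T-to-C conversion of each gene as a fraction. Libraries were 3′ end libraries (QuantSeq) on GRCh38, and bcl2fastq is named in the submitters' processing notes. What called the conversions, and on which annotation, was not given in the sources used here. No read counts were used, so no interval from depth can be given. Fractions were multiplied by 100. Groups came from the labels.

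Genes above 0 in all 4 libraries at 0 h were tested with limma 3.58.1 (R 4.3.3), empirical Bayes with a trend, two-sided, with Benjamini-Hochberg adjustment over all 11692 genes at 0.05. The ratio was fitted on log2(percent + 0.344), a pseudocount of 1% of the median 0 h conversion. It shrinks ratios of low values above 0, and the size of a ratio against a value listed at 0 depends on it. Points were fitted untransformed. The late fit had genotype and chase time as terms. 8 h, 12 h, late minus 0 h and late minus middle were contrasts of group means. The model was tested on simulated data with independent noise and no shift shared by the genes, which differs from the data here. Members and lists were chosen with earlier results of these data known. Named genes were CNOT3 and, among called genes whose groups did not overlap at either time, the 10 highest and 8 lowest by moderated t of the ratio with all 8 late values above 0 (the 10 also called as points), the 8 highest and 4 lowest in points, and the leading member of each of 20 lists in each direction. Of the genes this rule names, 1 is not reported here. Coding sequences, UTRs and coordinates came from GENCODE release 44. Alternatives changed the scale, filter, centring, floor, starting label, block and libraries.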

Additional observations from a re-analysis of the deposited data

Results flagged for a closer look

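The genotype difference, sgCNOT3 minus sgNT on the log2 scale, itself differed between the late chase and 0 h for 909 genes by limma's test of that difference (900 higher late and 9 lower). It differed between the late and the middle chase for 1421 genes and between 8 and 12 h for 17 genes. Among the named genes 28 passed the first test, 26 of them with a higher signed difference late than at 0 h.

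In 11 of these 26 genes both sgCNOT3 libraries were below both sgNT libraries at 0 h and no late sgNT library was at 0. The differences of the contrasts were 4.71 for GRPEL2, 4.18 for ZNF622, 3.43 for ID2, 3.05 for TCEAL1, 2.06 for NOA1, 2.04 for ZNF282, 1.97 for DDX56, 1.20 for DNAJC9, 1.04 for RPA1, 0.85 for PABPN1 and 0.48 for PSMA1. For RPA1 and PSMA1 the late difference was still below 0, so the gap was smaller late than at 0 h. Of the named genes that started without such a gap and had no late sgNT library at 0, the values were 2.30 for CDT1, 1.98 for PI4K2A, 1.75 for MT-ATP6, 1.51 for PCBP1, 1.40 for MRPL10, 0.91 for H2AC25 and 0.73 for CKS2.

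In the other 8 genes a late sgNT library was listed at 0, so that the log2 values depend on the pseudocount and are neither folds nor bounds. They were 9.96 for TSSK3, 7.07 for ENSG00000262304, 7.04 for SAMD15, 6.85 for MEIS3, 5.87 for ZNF396, 5.26 for EPGN, 4.77 for CHAC1 and 4.29 for TP53I3. DDX6, at -0.87, and PSAT1, at -0.54, went the other way, with adjusted p = 0.029 for DDX6 and 0.050 for PSAT1. The adjusted p of the 28 genes lay between 0.0014 and 0.050.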

How the results depend on the processing

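Centring gave 364 genes higher and 1541 lower as a ratio, 238 and 860 as points, 195 for late minus 0 h (105 higher, 90 lower) and 19 for late minus middle. Subtracting the label of the 1169 shortest-lived genes as a floor gave 379 higher and 487 lower as a ratio, and 271 and 395 as points. Relative to the starting label, with the 0 h means taken as fixed, 65 were lower as a ratio and 46 as points. Without the filter at 0 h 1072 were higher and 68 lower as points. With genes above 0 in all 8 late or in all 24 libraries, 224 and 237 were lower as points. Without the trend 104 were lower as a ratio. With a pseudocount of 1 point 324 passed at 8 h. In fits of 2 against 2 libraries, at 8 h only or 12 h only, 0 genes passed by limma on either scale. At an unadjusted p under 0.05 these fits gave 2732 higher and 293 lower as a ratio and 2776 and 252 as points at 8 h, and 2619 and 234, and 2732 and 191, at 12 h. With 4 h alone as the middle chase, chosen after seeing the data, 329 passed. The causes were not tested.

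With 1 library left out, the counts ran between 948 and 1853 (higher) and 77 and 123 (lower) as a ratio, and 227 and 1600 and 9 and 73 as points. They ran between 0 and 97 at 8 h, 5 and 1329 at 12 h, 1 and 87 for 12 h minus 8 h, 74 and 1431 for late minus 0 h, and 812 and 1838 for late minus middle. The difference of library medians ran between 0.66 and 0.77. Of the 54 named genes called as a ratio, 383 such calls held and 49 were lost, and of the 52 called as points 273 held and 143 were lost, with 0 reversed. The largest number lost for any 1 library was 40, without sgNT 8 h replicate 1.

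Deviations of same-numbered libraries correlated over genes by -0.0018 at 8 h and -0.0067 at 12 h. Each value compares a single difference between replicates per genotype, so it cannot settle whether the libraries were paired. With the replicate number as a block 1245 genes were higher and 73 lower as points, 0 passed at 8 h (2517 unadjusted), 602 at 12 h and 1 for 12 h minus 8 h. With the replicate block within chase time 494 were higher and 30 lower as a ratio, and 0 and 0 as points (3464 and 272 unadjusted).

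Relative to the starting label these genes turned direction, with log2 ratio and points of 0.14 and 1.94 for ATP5MC3, 0.56 and 6.24 for ETFA, 0.061 and 0.675 for SDHC, 0.47 and 7.52 for PSMA1, 0.51 and 6.89 for CCT8, 0.42 and 4.52 for PLS3, 0.10 and 1.33 for LAMP2, 0.092 and 1.88 for CFDP1, 0.079 and 0.962 for MRPS21, 0.40 and 4.52 for NPM1, 0.20 and 3.14 for CKS1B, 1.02 and 11.6 for RPA1, -0.17 and -2.26 for LSM4 and 0.24 and 2.91 for TALDO1. CNOT3 turned to -4.72 points there, and at 8 h only to -0.19 (log2) and -2.94 points. Centring turned the log2 difference to -0.059 for PSMA6, -0.051 for CKS2, -0.11 for PABPN1, -0.089 for LSM4 and -0.35 for PGAM1. Without depth, values from few reads cannot be told from well-covered ones.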
